A study of Homo sapiens with 6 samples.

Results

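The genes described here encode 37 proteins of homologous recombination, the Fanconi anemia pathway and mismatch repair. They were picked by gene symbol for their pathway, with earlier results of these data known, and all 37 were found among the 46427 genes listed in each library. Expression was measured by RNA sequencing in K562, a human erythroleukemia cell line that the labels give as wild type and as derived from bone marrow. The 2 groups were 3 libraries from cells given 10 µM HR-19011, a compound known here only by its code name, for 24 h, and 3 libraries from cells given 0.1% DMSO as vehicle for 24 h. The labels do not state the DMSO content of the HR-19011 cultures. Nor do they say that the libraries of a group are from different cultures, and the p-values below therefore speak for the scatter of these 6 libraries, part of which could be technical. According to its title the series is about a stress response to HR-19011, and here the question was how the levels of repair transcripts differed between HR-19011 and vehicle cells.

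Homologous recombination mends a broken chromosome by copying the sister chromatid. Ends are sensed and cut back to single strands, and mediator proteins load a recombinase on these strands, which then invade the sister. In the Fanconi anemia pathway a ubiquitin ligase, the core complex, marks the FANCD2-FANCI pair at crosslinked DNA, and the downstream steps use recombination. Mismatch repair removes copying errors behind the replication fork. Many genes of these pathways are expressed most highly in dividing cells and are known targets of E2F transcription factors.

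Values were FPKM, fragment counts that the authors scaled to the length of the transcript and the size of the library. Read counts were not used here, and the sequencing depth is unknown. The FPKM of all genes summed to between 420661 and 427819 in HR-19011 libraries and between 456639 and 467595 in vehicle libraries. All 10 markers of K562 cells were listed at 1 FPKM or more in every library. They summed to between 3561 and 3747 FPKM after HR-19011 and to between 8704 and 8871 FPKM in vehicle libraries. Most of both sums came from the globin genes HBG1 and HBG2. Their means were 1312 and 1885 FPKM after HR-19011, against 3350 and 4386 FPKM in vehicle. Of the 10 markers the erythroid factor gene KLF1 fell by the largest factor, to 11.4 ± 0.160 FPKM, against 79.9 ± 3.56 in vehicle (SD, n = 3 each). TAL1 overlapped between the groups, at means of 32.0 FPKM after HR-19011 and 31.3 in vehicle. Of 5 markers each, 2 for T cells, 1 for monocytes and 0 for B cells and fibroblasts reached 1 FPKM in every library. The T cell markers summed to between 17.4 and 17.9 FPKM after HR-19011 and between 8.65 and 11.4 FPKM in vehicle libraries, and CD2, MS4A1, FCN1, S100A8 and LUM, which mark T cells, B cells, monocytes and fibroblasts, were listed at 0 throughout. The 5 markers of epithelium summed to between 809 and 829 FPKM in HR-19011 libraries and between 336 and 351 FPKM in vehicle libraries, nearly all of it from the keratin genes KRT8, KRT18 and KRT19, which rose. Of the other epithelial markers, the adhesion gene EPCAM fell to 20.3 ± 1.37 FPKM, against 32.5 ± 0.767 in vehicle (SD, n = 3 each), and CDH1, which encodes E-cadherin, was near 0 in every library. The part of these shifts in the results below was not tested. In bulk RNA, fewer cells of one kind and less RNA per cell cannot be told apart.

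Most of the 37 repair genes were lower after HR-19011, and the falls were larger than the rises. In limma with Benjamini-Hochberg adjustment at 0.05 over all tested genes, 22 of the 37 (59.5%) fell, where 38.0% of the 11856 tested genes fell. A further 9 (24.3%) rose, where 46.4% of tested genes rose, though only 3 rose under TMM scaling, described below. In all 31 (83.8%) passed, where 84.4% of tested genes passed, a share near that background. For the same 31 genes the 3 HR-19011 values did not overlap the 3 vehicle values, 22 lower and 9 higher, where 38.3% of tested genes were lower without overlap and 46.9% higher, 85.2% together. The median log2 fold change, on the log2(FPKM + 1) scale that understates the change of low genes, was -0.26 over the 37 genes and 0.07 over all tested genes. EXO1 and RAD54L, 2 of the 37 (5.41%), were at least 2-fold lower on this scale, where 6.45% of tested genes were, and 0 were at least 2-fold higher, where 12.0% were. Against a threshold of 1.5-fold in limma, 8 of the 37 (21.6%) were lower, where 12.8% of tested genes were. In that test 0 of the 37 were higher, also at an unadjusted p under 0.05, where 18.6% of tested genes were higher. Summed over the 37 genes, FPKM came to between 388 and 403 in HR-19011 libraries and between 516 and 530 in vehicle libraries, or from 0.0916% to 0.0941% and from 0.113% to 0.114% of all FPKM.

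**Figure D1:**
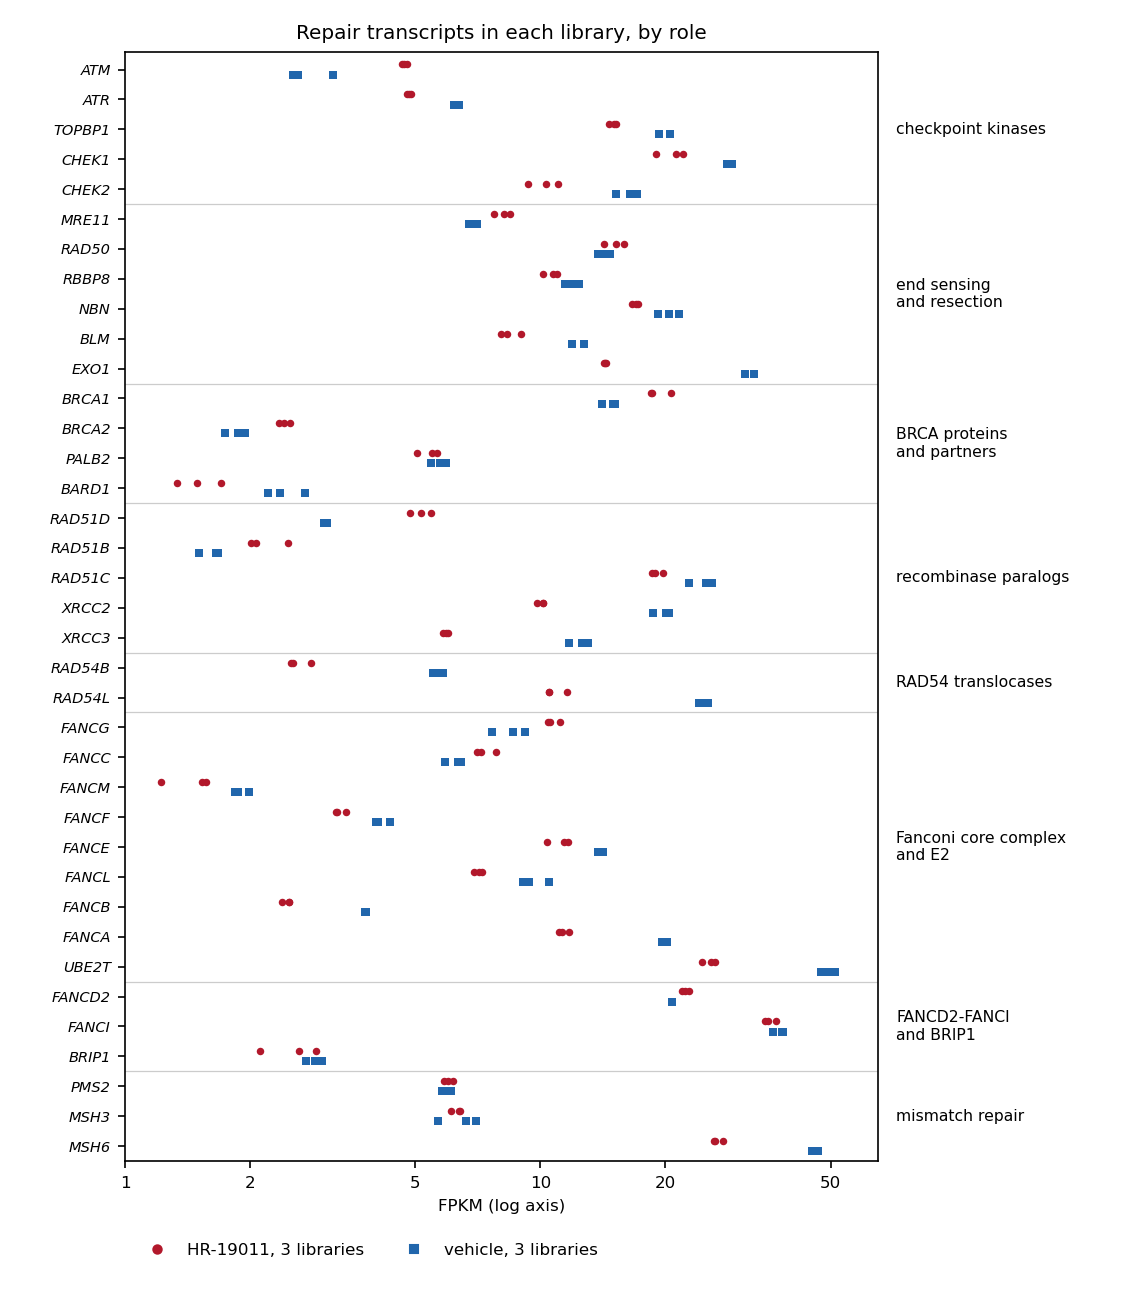
FPKM of each repair gene (log axis) in the 3 HR-19011 libraries (circles) and the 3 vehicle libraries (squares), in 8 groups by role and, within a group, ordered by log2 fold change. EXO1, RAD54L, XRCC2, XRCC3, UBE2T and MSH6 lie well to the left after HR-19011, whereas ATM, BRCA1 and RAD51D lie to the right.

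Because the direction of small changes depends on how libraries are scaled, each gene was also fitted under TMM scaling, TPM, quantile normalization and equal totals without the 100 highest genes. TMM moved the all-gene median of the log2 fold change by -0.22, quantile normalization by -0.13 and TPM by 0.12. Of the 37 genes, 21 (56.8%) were lower and passed under all 5 scalings, where 31.9% of tested genes did. Only ATM, BRCA1 and RAD51D were higher and passed under all 5 scalings, 3 genes (8.11%) where 31.6% of tested genes did. For 10 genes the sign depended on the scaling, namely MRE11, RAD50, BRCA2, PALB2, RAD51B, FANCC, FANCD2, FANCI, MSH3 and PMS2.

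**Figure D2:**
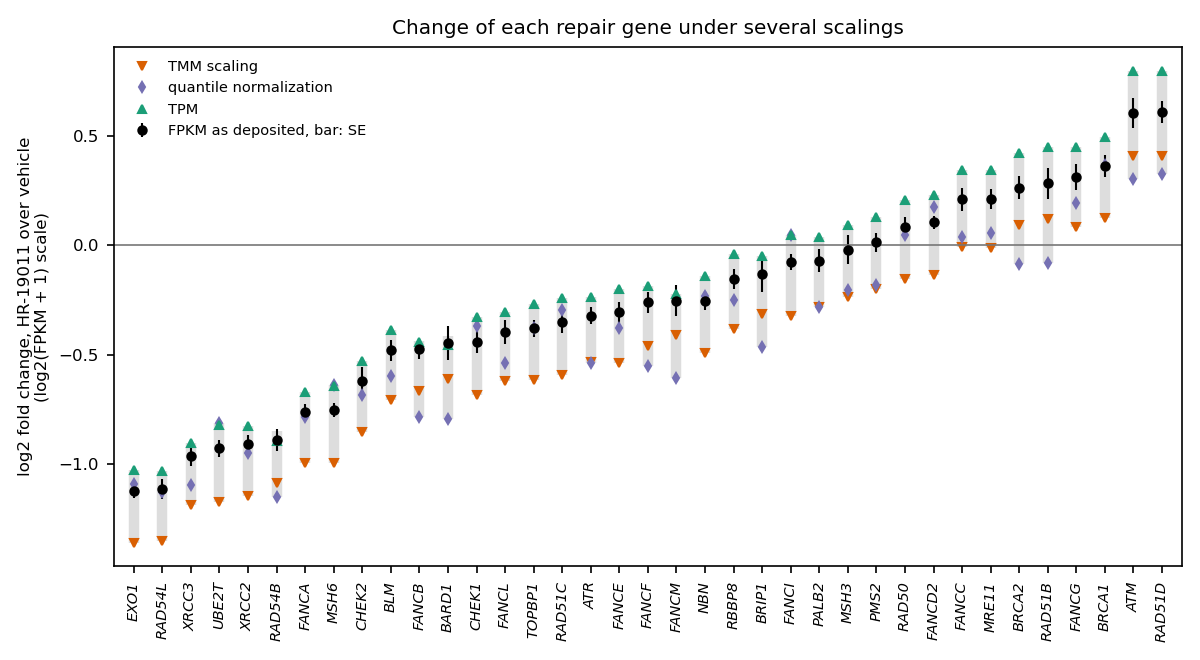
Log2 fold change of each repair gene, HR-19011 over vehicle, on the log2(FPKM + 1) scale. Black points are FPKM as deposited with their standard error, colored points are TMM, quantile and TPM scaling, and the grey bar spans all 5 scalings. The genes from EXO1 at the left to RBBP8 stay below 0 throughout, as does BRIP1, and ATM, RAD51D, BRCA1 and FANCG stay above 0.

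Promoter sequences were available for 34 of the 37 genes from RefSeq on GRCh38.p14, as windows from 250 bases before to 50 bases from each listed start. They were searched on both strands for 3 forms of the E2F site, TTTCCCGC, TTTGGCGC and TTTCGCGC, of which the last can overlap the others on the opposite strand. At least 1 form was present at 7 of the 34 genes (20.6%), against 6.08% of the 8992 tested genes with a promoter and 3.30% of all 27305 genes in the table. The sites are shown because EXO1, XRCC2 and MSH6 are among the genes that fell most, whereas FANCC, FANCD2 and MSH3 carry the same words. Each line holds 30 bases, 5′ to 3′ along the gene's own strand, with the E2F form or its reverse complement in capitals.
EXO1: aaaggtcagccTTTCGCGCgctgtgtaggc
XRCC2: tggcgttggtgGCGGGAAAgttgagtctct
MSH6: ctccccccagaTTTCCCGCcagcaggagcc
TOPBP1: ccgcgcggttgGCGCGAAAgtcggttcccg
FANCC: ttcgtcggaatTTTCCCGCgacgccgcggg
FANCD2: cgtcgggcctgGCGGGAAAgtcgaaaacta
MSH3: gcgcggtcaagTTTGGCGCgaaattgtggc
In that order they lie at chr1:241848197-241848226 on the plus strand, chr7:152676102-152676131 on the minus strand, chr2:47783137-47783166 (plus), chr3:133661930-133661959 (minus), chr9:95317737-95317766 (minus), chr3:10026424-10026453 (plus) and chr5:80654534-80654563 (plus). The EXO1, XRCC2 and MSH6 words begin at bases 5, 22 and 4 of the transcript, and the FANCD2 and TOPBP1 words begin 2 and 7 bases before the start. For EXO1 this counts from a listed start at base 241848204, which lies inside the span of the gene rather than at its end. FANCC holds a second form, TTTCGCGC, 172 bases before its start, and at MSH3 that form overlaps the one shown on the other strand. By call, a form was present at 4 of the 20 lower genes with a promoter, 2 of the 9 higher genes and 1 of the 5 that did not pass. A match describes these letters and is no measure of binding.

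The word CCAAT, bound by NF-Y, was present on either strand at 16 of the 34 genes (47.1%), a share near the 43.8% of tested genes. By call it was present at 10 of the 20 lower genes, 3 of the 9 higher genes and 3 of the 5 that did not pass. The TTTGAA word of the cell cycle homology region was at 4 of the 34 (11.8%), against 13.3% of tested genes, and its variant TTCGAA at 0 of the 34, against 2.40% of tested genes. The 120 bases before the most upstream listed start are shown for 3 genes that fell strongly and 2 that rose under every scaling. CCAAT or ATTGG is in capitals. The 3 that fell held none of the E2F words searched. Only exact matches to those words were counted, so other forms of the site may be present.
RAD54L: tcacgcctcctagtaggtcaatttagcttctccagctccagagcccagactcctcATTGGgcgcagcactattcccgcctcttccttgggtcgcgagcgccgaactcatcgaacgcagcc
UBE2T: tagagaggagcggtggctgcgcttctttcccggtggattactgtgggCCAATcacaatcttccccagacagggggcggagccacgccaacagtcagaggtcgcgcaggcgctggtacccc
XRCC3: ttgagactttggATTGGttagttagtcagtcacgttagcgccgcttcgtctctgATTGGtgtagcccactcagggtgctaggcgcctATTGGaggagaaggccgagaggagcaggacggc
ATM: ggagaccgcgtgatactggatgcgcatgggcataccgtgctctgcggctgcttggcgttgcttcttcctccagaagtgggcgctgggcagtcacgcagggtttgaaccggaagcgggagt
RAD51D: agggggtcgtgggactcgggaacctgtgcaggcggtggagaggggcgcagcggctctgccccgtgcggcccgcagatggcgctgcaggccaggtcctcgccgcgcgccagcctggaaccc
In that order they are chr1:46247568-46247687 (plus), chr1:202341937-202342056 (minus), chr14:103715452-103715571 (minus), chr11:108222947-108223066 (plus) and chr17:35119861-35119980 (minus). XRCC3 holds 3 such words in this stretch, RAD54L and UBE2T 1 each, and ATM and RAD51D 0. The stretch is shorter than the windows searched, in which RAD54L, UBE2T and XRCC3 hold further words. In those windows ATM holds the word 188 bases before the start shown, and again 56 bases before and 37 bases after another listed start. BRCA1, the other gene higher under every scaling, holds it 175 bases before a listed start. The stretches shown thus differ in this word, but the windows searched held it both at genes that fell and at genes that rose.

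The checkpoint kinases signal DNA damage and stalled forks to the cell cycle. ATM, the kinase activated by broken ends, rose to 4.78, 4.69 and 4.64 FPKM in HR-19011 libraries, against 2.61, 2.53 and 3.16 FPKM in vehicle libraries. ATR, the kinase activated by single-stranded DNA at forks, fell to 4.76, 4.87 and 4.81 FPKM, against 6.38, 6.23 and 6.19 FPKM in vehicle. The groups overlapped for neither gene, and the kinases moved in opposite directions, with log2 fold changes of 0.60 for ATM (SE 0.0672, limma adjusted p = 2.71e-05) and -0.32 for ATR (SE 0.0401, limma adjusted p = 5.89e-05). Their levels were close to each other after HR-19011, with 0.978 ± 0.0228 FPKM of ATM per FPKM of ATR, against 0.443 ± 0.0597 in vehicle (SD, n = 3 each). CHEK2, a kinase that acts downstream of ATM, fell to 9.33, 10.3 and 11.04 FPKM, against 15.2, 16.5 and 17.1 FPKM in vehicle, 1.59-fold. CHEK1, the kinase downstream of ATR, and TOPBP1, which activates ATR, fell 1.37-fold and 1.32-fold. On GRCh38, ATM spans 108223067 to 108369102 of chromosome 11 and CHEK2 spans 28687742 to 28741834 of chromosome 22.

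Genes for sensing and trimming broken ends differed widely. EXO1, the exonuclease of long-range resection that also removes the strand with a mismatch, fell to 14.3, 14.4 and 14.2 FPKM in HR-19011 libraries, against 32.7, 31.1 and 32.8 FPKM in vehicle libraries. This was the lowest log2 fold change of the 37 as deposited, -1.12 (SE 0.0331, limma adjusted p = 4.08e-09), barely below RAD54L at -1.11. Their order depended on the scaling, with RAD54L lower under quantile normalization (-1.13 against -1.09) and EXO1 lower under TMM (-1.36 against -1.35). EXO1 lies on chromosome 1 from 241847986 to 241889939. BLM, a helicase that unwinds ends for resection, fell 1.44-fold to 8.44 ± 0.468 FPKM, against 12.2 ± 0.469 in vehicle (SD, n = 3 each). RBBP8, encoding CtIP, which starts resection, had 10.7, 10.97 and 10.1 FPKM, against 12.4, 11.5 and 11.9 in vehicle, and its fall of 0.15 on the log2 scale did not pass under TPM (adjusted p = 0.376).

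The 3 subunits of the complex that tethers broken ends, MRE11, RAD50 and NBN, differed by 1.20-fold or less. MRE11, its nuclease, had 7.74, 8.44 and 8.17 FPKM after HR-19011 and 6.73, 7.03 and 6.86 FPKM in vehicle, a log2 fold change of 0.21 that turned to -0.01 under TMM. RAD50, the ATPase that bridges ends, had 15.2, 15.9 and 14.2 FPKM against 14.7, 13.8 and 14.2 in vehicle, and the groups overlapped (log2 fold change 0.08, limma adjusted p = 0.130). Its call depended on scaling and on 1 library: it was lower under TMM (-0.15, adjusted p = 0.00914), higher under TPM (0.21, adjusted p = 0.00235), and higher without HR-19011 library 3 (0.12, adjusted p = 0.0363). NBN, the subunit that recruits ATM, fell to 16.9, 17.2 and 16.7 FPKM, against 21.5, 19.2 and 20.4 FPKM in vehicle, 1.20-fold, and passed under all 5 scalings.

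BRCA1 and BARD1 encode the partners of 1 ubiquitin ligase, and their transcripts moved apart. BRCA1 rose to 18.5, 20.6 and 18.6 FPKM in HR-19011 libraries, against 15.2, 14.98 and 14.0 FPKM in vehicle libraries. Its reads may not have been fully told apart from those of NBR2, an overlapping gene described below, which also rose. BARD1, a low transcript, fell to 1.33, 1.70 and 1.49 FPKM, against 2.70, 2.35 and 2.20 FPKM in vehicle. Neither gene's groups overlapped, and the log2 fold changes were 0.36 for BRCA1 (SE 0.05003, limma adjusted p = 0.000121) and -0.45 for BARD1 (SE 0.0776, limma adjusted p = 0.000531). Within a library, which no scaling by a single factor can change, BRCA1 stood at 12.8 ± 0.927 times the FPKM of BARD1 after HR-19011 and at 6.12 ± 0.443 times in vehicle (SD, n = 3 each).

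BRCA2, which loads the recombinase, had 2.34, 2.42 and 2.50 FPKM after HR-19011 and 1.94, 1.74 and 1.87 FPKM in vehicle. Its groups did not overlap, and its log2 fold change of 0.26 (SE 0.0542, limma adjusted p = 0.00158) fell short of the threshold under TMM (0.09, adjusted p = 0.127) and turned to -0.09 under quantile normalization. PALB2, the bridge between BRCA1 and BRCA2, had 5.04, 5.63 and 5.48 FPKM against 5.46, 5.91 and 5.74 in vehicle. These overlapped, and PALB2 did not pass as deposited (log2 fold change -0.07, limma adjusted p = 0.229), though it was lower under TMM (-0.28, adjusted p = 0.000927) and under quantile normalization (-0.28, adjusted p = 0.00111) and stood at 0.04 under TPM. BRCA1 lies on chromosome 17 from 43044295 to 43170327 and BRCA2 on chromosome 13 from 32315077 to 32400268.

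The 5 recombinase paralogs, which form small complexes that help the recombinase filament, split in direction. XRCC3 fell to 5.98, 5.94 and 5.84 FPKM in HR-19011 libraries, against 11.7, 12.6 and 13.04 FPKM in vehicle libraries, 2.11-fold. XRCC2 fell to 9.80, 10.1 and 10.1 FPKM, against 20.1, 18.7 and 20.4 FPKM in vehicle, 1.97-fold. RAD51D, which binds XRCC2 directly, rose to 5.17, 5.46 and 4.86 FPKM, against 3.05, 3.01 and 3.06 FPKM in vehicle, 1.70-fold. The 3 log2 fold changes were -0.96 (SE 0.0455) for XRCC3, -0.91 (SE 0.0416) for XRCC2 and 0.61 (SE 0.0505) for RAD51D, with limma adjusted p of 7.38e-08, 5.83e-08 and 3.43e-06. RAD51C, a subunit of both paralog complexes, fell 1.29-fold to 19.0 ± 0.602 FPKM, against 24.6 ± 1.599 in vehicle (SD, n = 3 each). RAD51B had 2.01, 2.47 and 2.06 FPKM against 1.67, 1.66 and 1.504 in vehicle, a log2 fold change of 0.28 (limma adjusted p = 0.00446) that was 0.12 under TMM (adjusted p = 0.135) and turned to -0.08 under quantile normalization.

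Both RAD54 translocases, motor proteins that help the filament open the sister duplex, fell by similar factors. RAD54L fell to 10.5, 11.6 and 10.5 FPKM, against 24.4, 24.1 and 25.3 FPKM in vehicle, and RAD54B to 2.80, 2.50 and 2.54 FPKM, against 5.81, 5.51 and 5.76 FPKM in vehicle. These were 2.27-fold and 2.18-fold, with log2 fold changes of -1.11 (SE 0.0453, limma adjusted p = 2.82e-08) and -0.89 (SE 0.0512, limma adjusted p = 2.74e-07). The ratio of RAD54L to RAD54B FPKM overlapped between the groups, at 4.16 ± 0.447 after HR-19011 and 4.32 ± 0.114 in vehicle (SD, n = 3 each).

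In the Fanconi core complex and its ubiquitin-conjugating enzyme, 7 of 9 genes fell (77.8%) and 2 rose (22.2%), where 38.0% of tested genes fell and 46.4% rose. UBE2T, the conjugating enzyme and the highest of the 37 in vehicle libraries, fell to 24.4, 26.4 and 25.7 FPKM, against 51.4, 47.4 and 49.5 FPKM in vehicle. FANCL, the ligase subunit that it serves, fell less, to 7.24, 6.91 and 7.11 FPKM, against 9.37, 9.09 and 10.5 FPKM in vehicle. FANCA, a scaffold subunit, fell to 11.7, 11.2 and 11.1 FPKM, against 19.7, 20.1 and 19.9 FPKM in vehicle, 1.76-fold. For all 3 the groups were well apart, and the log2 fold changes were -0.93 (SE 0.0407, limma adjusted p = 4.49e-08) for UBE2T, -0.40 (SE 0.0546, limma adjusted p = 0.000116) for FANCL and -0.76 (SE 0.0353, limma adjusted p = 6.40e-08) for FANCA. FANCB, which binds FANCL, fell 1.55-fold, FANCM, the DNA translocase that anchors the complex, 1.32-fold, and FANCE, which contacts FANCD2, and FANCF, an adaptor subunit, 1.26-fold each. FANCM was a low transcript, at 1.56, 1.22 and 1.53 FPKM after HR-19011, against 1.83, 1.87 and 1.99 FPKM in vehicle.

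FANCG, which binds FANCA, had 10.5, 11.2 and 10.5 FPKM after HR-19011 and 7.65, 9.16 and 8.58 FPKM in vehicle, with no overlap. Its log2 fold change was 0.31 (SE 0.0611, limma adjusted p = 0.00117), a rise that did not pass under TMM (0.08, adjusted p = 0.246). FANCA and FANCG therefore stood at nearly equal FPKM after HR-19011, at a ratio of 1.06 ± 0.0582, against 2.37 ± 0.191 in vehicle (SD, n = 3 each). FANCC had 7.84, 7.04 and 7.17 FPKM against 6.32, 5.90 and 6.44 in vehicle, a log2 fold change of 0.21 (limma adjusted p = 0.00465) that was -0.0089 under TMM and missed the threshold under quantile normalization (0.04, adjusted p = 0.490).

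The substrate pair of the core complex differed little, with FANCD2 1.08-fold higher and FANCI 1.06-fold lower in mean FPKM. FANCD2 had 22.3, 22.8 and 21.9 FPKM in HR-19011 libraries and 20.7, 20.7 and 20.7 FPKM in vehicle libraries, a log2 fold change of 0.10 (SE 0.0309, limma adjusted p = 0.0115) that turned to -0.14 under TMM (adjusted p = 0.00201). FANCI had 35.4, 36.9 and 34.8 FPKM against 38.2, 36.4 and 38.5 in vehicle, and did not pass (log2 fold change -0.08, limma adjusted p = 0.0725). It was lower under TMM (-0.32, adjusted p = 1.23e-05), and lower without HR-19011 library 2 (-0.10, adjusted p = 0.0388) or vehicle library 2 (-0.10, adjusted p = 0.0287), but stood at 0.04 under TPM and 0.05 under quantile normalization. BRIP1, a helicase that binds BRCA1, had 2.11, 2.88 and 2.62 FPKM against 2.98, 2.86 and 2.73 in vehicle, with overlap (log2 fold change -0.13, limma adjusted p = 0.164). It was lower under TMM (-0.31, adjusted p = 0.00594), under quantile normalization (-0.46, adjusted p = 0.000839) and without HR-19011 library 2 (-0.20, adjusted p = 0.0463). Pseudogene copies of FANCD2 were low, with FANCD2P1 at 1.62 ± 0.0938 FPKM after HR-19011 and 1.75 ± 0.199 in vehicle (SD, n = 3 each).

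Among the 3 mismatch repair genes, MSH6 fell and the others did not pass. MSH6, the recognition subunit for single mismatches, fell to 26.2, 27.6 and 26.4 FPKM, against 46.7, 45.1 and 45.2 FPKM in vehicle, 1.71-fold (log2 fold change -0.75, SE 0.0324, limma adjusted p = 3.98e-08). MSH3, which takes the place of MSH6 for larger loops, had 6.38, 6.09 and 6.40 FPKM after HR-19011 and 6.61, 5.67 and 6.98 FPKM in vehicle, inside the vehicle range. It did not pass (log2 fold change -0.02, limma adjusted p = 0.775), and was lower under TMM (-0.24, adjusted p = 0.00729) and quantile normalization (-0.20, adjusted p = 0.0147) but 0.09 under TPM. MSH6 thus stood at 4.26 ± 0.238 times the FPKM of MSH3 after HR-19011, against 7.17 ± 0.750 times in vehicle (SD, n = 3 each).

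PMS2, a subunit of the endonuclease that nicks the new strand, had 5.87, 6.17 and 5.99 FPKM after HR-19011 and 6.07, 5.78 and 5.99 FPKM in vehicle (log2 fold change 0.01, limma adjusted p = 0.782). It was lower under TMM (-0.20, adjusted p = 0.00115) and quantile normalization (-0.18, adjusted p = 0.00209) and higher under TPM (0.13, adjusted p = 0.0192). PMS2 has 12 listed pseudogene copies, which together held 42.8, 43.5 and 41.4 FPKM after HR-19011 and 37.9, 36.8 and 39.3 FPKM in vehicle. No source used here says how the authors assigned reads that match both PMS2 and a copy, so the PMS2 value is uncertain.

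Proteins of these pathways work in pairs, so FPKM ratios were taken within each library for 13 pairs of partners or related genes, a choice made after their values were seen and given without a test. In 11 of the 13 pairs the HR-19011 ratios did not overlap the vehicle ratios, a share close to the 85.2% of single tested genes whose groups did not overlap, so nothing is read from this count. RAD51D to XRCC2 differed most, at 0.528, 0.538 and 0.480 after HR-19011 and 0.152, 0.161 and 0.150 in vehicle. XRCC3 to RAD51C was 0.311 ± 0.00651 after HR-19011 and 0.507 ± 0.00672 in vehicle, and UBE2T to FANCL 3.605 ± 0.221 and 5.14 ± 0.391 (SD, n = 3 each). FANCD2 to FANCI moved less, to 0.627 ± 0.00699 after HR-19011, against 0.550 ± 0.0171 in vehicle. The groups overlapped for MRE11 to RAD50, at 0.508, 0.531 and 0.574 after HR-19011 and 0.457, 0.510 and 0.485 in vehicle, and for RAD54L to RAD54B. Quantile normalization, which rescales low and high genes unequally, moved the RAD51B to RAD51C ratio of HR-19011 over vehicle to 1.14, against 1.74 as deposited, and the other 12 ratios by less.

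**Figure D3:**
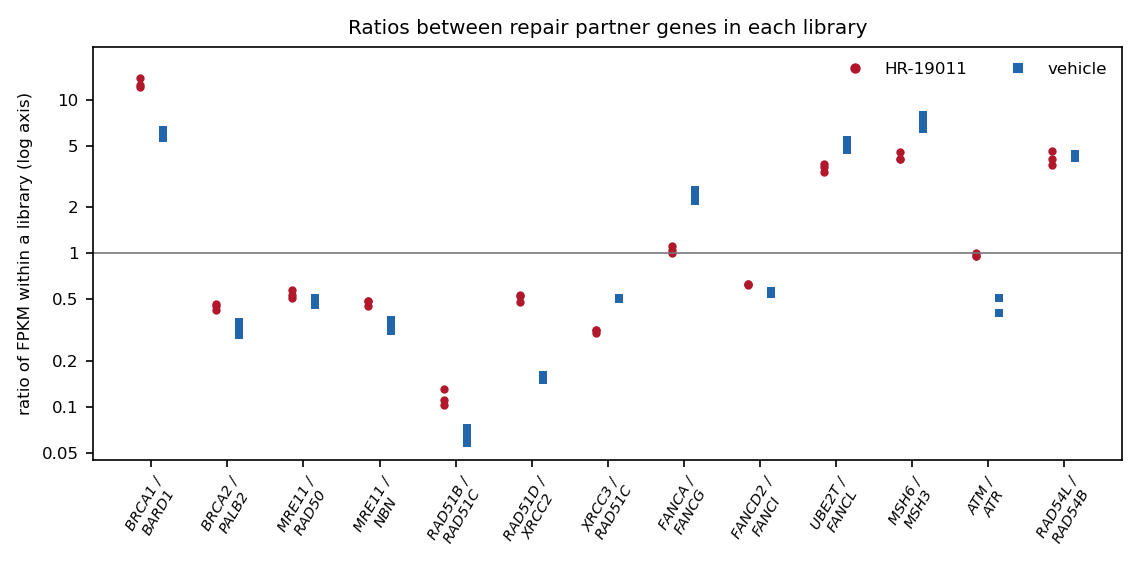
Ratio of FPKM between partner or related repair genes within each library (log axis), for 3 HR-19011 libraries (circles, left of each tick) and 3 vehicle libraries (squares, right). BRCA1 to BARD1 and RAD51D to XRCC2 are higher after HR-19011, FANCA to FANCG and MSH6 to MSH3 are lower, and RAD54L to RAD54B overlaps.

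Several of these genes lie head to head with another gene. Only the 34 genes with a promoter sequence could be searched, which leaves out FANCI, NBN and RAD54B. By RefSeq positions, 15 of these 34 had a gene on the opposite strand whose start lay within 1000 bases upstream. Of those neighbors, 8 were expressed highly enough to be tested. In 3 of the 8 pairs both genes passed in the same direction. Singly, 46.4% of tested genes were higher and 38.0% lower, and nothing is read from the count of pairs. NBR1, an autophagy receptor gene that starts 82 bases from the more distal of the 2 listed BRCA1 starts, rose to 32.0, 32.6 and 30.6 FPKM, against 13.1, 12.5 and 13.2 FPKM in vehicle. NBR2, a noncoding gene 193 bases from the other BRCA1 start, rose to 17.8, 17.7 and 16.9 FPKM, against 3.07, 2.96 and 3.58 FPKM in vehicle. Both rose more than BRCA1 did (log2 fold changes of 1.23 for NBR1 and 2.14 for NBR2, limma adjusted p = 4.57e-09 and 2.68e-09), and NBR2 was named after its values were seen. NBR2 starts inside the span of the longer BRCA1 form on the other strand, and the sources used here do not say whether counting used strand, so BRCA1 and NBR2 reads may not have been fully told apart. ZFYVE21, 359 bases from XRCC3, fell with it to 4.46, 4.47 and 4.37 FPKM, against 7.27, 7.89 and 7.87 FPKM in vehicle. ANKRD49, 140 bases from MRE11, had a log2 fold change of 0.24 (limma adjusted p = 0.0116), against 0.21 for MRE11, and like MRE11 it missed the threshold under TMM (0.03, adjusted p = 0.737) and quantile normalization (0.06, adjusted p = 0.403).

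In 2 of the 8 pairs the neighbors passed in opposite directions. MOSPD2, 352 bases from FANCB, rose to 4.41, 4.03 and 4.07 FPKM, against 1.78, 1.75 and 1.93 FPKM in vehicle, while FANCB fell to 2.38, 2.48 and 2.48 FPKM, against 3.79, 3.799 and 3.79 FPKM in vehicle. HSCB, an iron-sulfur cluster co-chaperone gene 212 bases from CHEK2, had a log2 fold change of 0.22 (limma adjusted p = 0.0157), but missed the threshold without HR-19011 library 1 or 3 or vehicle library 2 (adjusted p = 0.0560, 0.0581 and 0.0563), under TMM (0.02, adjusted p = 0.833) and under quantile normalization (-0.06). NPAT, a histone gene regulator 429 bases from ATM, had 4.73, 5.00 and 5.04 FPKM against 5.30, 5.02 and 5.22 in vehicle. Beside the rise of ATM, NPAT did not pass as deposited (log2 fold change -0.06, limma adjusted p = 0.233) and was lower under TMM (-0.27, adjusted p = 0.000344) and quantile normalization (-0.29, adjusted p = 0.000272). DCTN5, next to PALB2, and AIMP2, next to PMS2, had log2 fold changes of -0.14 and -0.17 (limma adjusted p = 0.00899 and 0.00122), and neither passed under TPM, nor DCTN5 with equal totals without the 100 highest genes (adjusted p = 0.0512).

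Other gene lists are set beside all tested genes, of which 46.4% rose and 38.0% fell. Under all 5 scalings 31.6% of tested genes passed as higher and 31.9% as lower. Counts near these shares are not read as results. Of 22 other homologous recombination genes, 10 rose (45.5%) and 8 fell (36.4%), with a median of 0.02 (log2), of which 4 and 6 passed under all 5 scalings. RPA2, a subunit of the single-strand binding protein, fell to 48.6 ± 1.41 FPKM, against 82.2 ± 0.794 in vehicle, and SWI5, a recombinase accessory factor, rose to 53.9 ± 3.25 FPKM, against 32.4 ± 1.87 (SD, n = 3 each). Of 15 other Fanconi pathway genes, 4 rose and 5 fell (median 0.05), of which 1 and 3 passed under all 5 scalings. CENPX, a histone-fold partner of FANCM, fell 4.76-fold to 24.8 ± 1.15 FPKM, against 118 ± 1.51 in vehicle, and the nuclease subunit gene ERCC1 rose 2.13-fold. Of 13 other mismatch repair genes, most of them shared with replication, 9 fell and 2 rose (median -0.32), from PCNA, the sliding clamp, 2.64-fold lower, to POLD4, a small polymerase delta subunit, at 29.1 ± 1.19 FPKM against 4.89 ± 0.254 in vehicle. Of 21 other checkpoint and damage signaling genes, 9 rose and 8 fell (median 0.10), from the histone variant gene H2AX, lowest on the log2(FPKM + 1) scale and 2.21-fold lower in mean FPKM, to ABRAXAS1, which holds the BRCA1-A complex together, 2.83-fold higher.

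The counts of the next 3 lists also stand beside 46.4% of tested genes higher and 38.0% lower. Nonhomologous end joining, which rejoins ends without a template, had 5 of 10 genes higher and 5 lower (median 0.09), between PAXX at 1.92-fold lower and the polymerase gene POLM at 2.61-fold higher. Of the base excision repair genes, 15 of 16 passed the filter on low values, and 9 fell and 5 rose (median -0.21), between UNG at 3.82-fold lower and LIG3 at 2.09-fold higher. Among 17 nucleotide excision repair genes, 10 fell and 4 rose (median -0.18), between GTF2H2, which has near-identical copies that make its value uncertain, at 1.68-fold lower and DDB2 at 2.42-fold higher. The 4 list medians above 0 turned below it under TMM and quantile normalization, as did the median of all tested genes. That all-gene median went from 0.07 to -0.15 and -0.0547. The list medians went to -0.17 and -0.32 for homologous recombination and -0.17 and -0.21 for the Fanconi pathway. They went to -0.14 and -0.01 for checkpoint genes and -0.11 and -0.15 for end joining.

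In the DNA replication list 26 of 28 genes fell (92.9%), where 38.0% of tested genes fell. Under all 5 scalings 24 of the 28 passed as lower, where 31.9% of tested genes did, and the median log2 fold change was -0.74. In limma on FPKM as deposited 0 of the 28 were higher, also at an unadjusted p under 0.05. CDT1, not called as deposited, passed as higher under TPM (0.16, adjusted p = 0.0033) and quantile normalization (0.18, adjusted p = 0.000799). It was also higher with equal totals without the 100 highest genes (0.08, adjusted p = 0.0404), but lower under TMM (-0.21, adjusted p = 0.000579). MCM4, a subunit of the replicative helicase, fell most, to 47.5 ± 1.70 FPKM, against 121 ± 2.65 in vehicle (SD, n = 3 each). Among 19 E2F, RB and DREAM complex genes, which regulate replication and repair genes, 11 fell (57.9%) and 5 rose (26.3%), with a median of -0.31. Of all tested genes 38.0% fell and 46.4% rose. TFDP1, the dimer partner of E2F proteins, fell to 27.5 ± 0.184 FPKM, against 62.9 ± 2.63 in vehicle, and LIN37, a DREAM subunit, rose to 10.4 ± 1.57 FPKM, against 4.75 ± 0.0693. The part of these shifts in the repair genes' values was not tested.

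**Figure D4:**
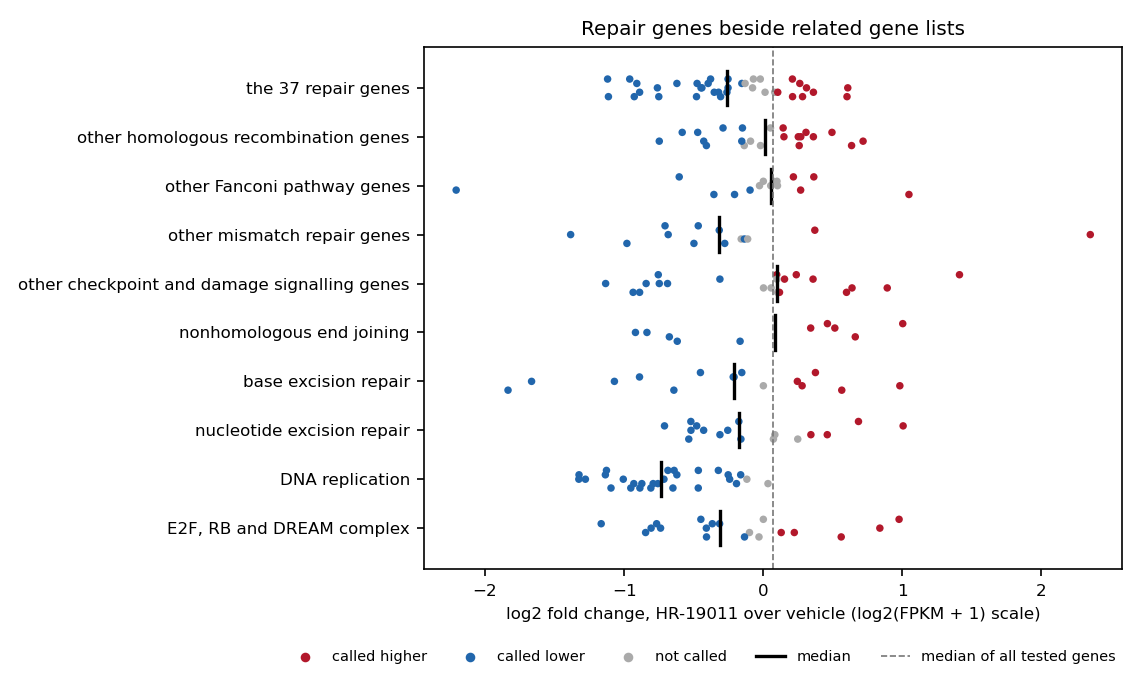
Log2 fold change, HR-19011 over vehicle, on the log2(FPKM + 1) scale for the 37 repair genes and 9 other gene lists, 1 point per tested gene, with the list's median as a black bar and the median of all tested genes as a dashed line. The medians are -0.26 for the 37 repair genes, -0.74 for DNA replication and between -0.32 and 0.10 for the other 8 lists.

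Across the 37 genes, those at higher mean FPKM had lower log2 fold changes, with a Spearman rho of -0.368, against -0.252 across all 11856 tested genes. For gene span the rho was 0.335 across the 37, against 0.163 across the 11797 tested genes with a position. Both describe genes measured in the same 6 libraries, on a scale that compresses changes at low FPKM.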

How the data were processed

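The authors deposited FPKM per gene for 6 K562 libraries. Per the labels' protocols, RNA came from a TRIzol extraction and the libraries were stranded and made from messenger RNA. The submitters' processing notes name StringTie 2.1.3b, HISAT2 2.1.0, SAMtools 1.9, Trimmomatic 0.38, Bowtie2, HISAT, GRCh38 and DESeq2 1.24.0, with no role for each. The handling of reads that match several genes is not stated there. In 4196 genes with a known length, FPKM was checked for steps worth 1 read. The best step brought 28.8% to 31.9% of a library's values within 0.1 of whole reads, and 20% would do so at any fixed step, so reads were not recovered and depth is unknown. At most 0.0227% of nonzero values were identical between libraries of a group.

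The 11856 genes whose mean reached 1 FPKM were tested on log2(FPKM + 1) using limma 3.58.1 (R 4.3.3). The model held only the group, with a trended variance prior, and tests were two-sided with Benjamini-Hochberg adjustment at 0.05. No exact permutation test was run, because with 3 libraries a group its smallest p is 0.1. Folds not on the log2 scale divide 1 group's mean FPKM by the other's. Members, gene lists, roles and tests were chosen with earlier results of these data known. Values in every library are given for genes fixed by name, the extremes of each role, and members that did not pass or whose sign depended on scaling; other members were added. From each list the lowest and highest called genes are named; LYZ, TRBC1 and EPCAM, named by that rule among markers, had log2 fold changes of 0.13, 0.99 and -0.66. Alternatives were pseudocounts of 0.1 and 5, other filters and scalings, no trend, a block for the replicate number, omission of each library in turn, a stricter threshold (0.01) and testing against 1.5-fold.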

Additional observations from a re-analysis of the deposited data

How the results depend on the processing

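With 3 libraries a group and no counts, precision is limited by the spread between libraries, and small changes depend on scaling. The 9 higher repair genes became 5 when genes needed a mean of 5 FPKM, 3 under TMM, 5 under quantile normalization and 0 against 1.5-fold, and the 22 lower became 8 against 1.5-fold. Over all genes, the 5506 higher became 8828 with no filter, 3347 with the 5 FPKM filter and 2201 against 1.5-fold, and the 4503 lower became 1515 against 1.5-fold. Higher genes made up 55.0% of all calls as deposited, 40.5% under TMM, 46.4% under quantile normalization, 62.2% under TPM, 64.4% with no filter and 47.5% with the 5 FPKM filter. The filter and the 1.5-fold test change these counts by construction, and the cause of the other shifts was not tested. Leaving out each library gave 9 to 10 higher and 22 to 24 lower repair genes, and 5318 to 5419 higher and 4345 to 4452 lower genes in all. Same-numbered libraries did not deviate together (correlations of -0.034, -0.004 and -0.108), and differently numbered ones gave -0.034 to 0.07. With 3 libraries a group this cannot show whether the replicate number marks a shared culture or batch, so the main model used no pairing. With the replicate number as a block, 9 repair genes were higher and 22 lower, and 5435 and 4445 genes in all, and no call of a repair gene changed.

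The median of all genes, 0.07, was -0.15 under TMM, -0.0547 under quantile normalization and -0.0389 with the 5 FPKM filter. Log2 fold changes reversed under TMM for MRE11 (-0.0106), RAD50 (-0.15), FANCC (-0.0089), FANCD2 (-0.14), PMS2 (-0.20) and LYZ (-0.0984). They reversed under quantile normalization for BRCA2 (-0.0864), RAD51B (-0.0805), FANCI (0.0483), PMS2 (-0.18) and HSCB (-0.0592), under TPM for PALB2 (0.0374), FANCI (0.0445), MSH3 (0.0933) and NPAT (0.0469), and with equal totals without the 100 highest genes for MSH3 (0.0236). Leaving out 1 library reversed MSH3 (0.0332 without vehicle library 3, down to -0.096 without vehicle library 2) and PMS2 (-0.00323 without HR-19011 library 2, -0.00431 without vehicle library 2, and at most 0.0276 otherwise). LYZ did not pass without HR-19011 library 1 or 3 or vehicle library 2 (adjusted p = 0.0719, 0.0621 and 0.0602). The RAD54L to RAD54B ratio of HR-19011 over vehicle, 0.963, was 1.21 under quantile normalization and 0.909 to 1.012 with 1 library left out. The alternatives for ratios were added after seeing the data. Genes below a mean of 5 FPKM have no value under that filter.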
